A study of Mus musculus with 14 samples.

Results

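The 7 genes described here belong to the red blood cell: the adult alpha globins Hba-a1 and Hba-a2, the adult beta globins Hbb-bs and Hbb-bt, the embryonic beta-like globin Hbb-y, the haem synthesis enzyme Alas2 and the red cell anion exchanger Slc4a1. They were taken by symbol out of the 56691 genes of the count table, and 6 of the 7 passed the filter on low counts, all but Hbb-y. RNA of whole mouse paws was extracted with TRIzol, depleted of ribosomal RNA and sequenced. Wild-type (WT) mice gave 4 libraries on postnatal day 0 (P0) and 5 on day 3 (P3), and mice labelled Krt9-/-, null for the keratin of palm and sole epidermis, gave 2 libraries on P0 and 3 on P3. Each group held males and females, and the labels carry a litter number. The sources used here give neither the strain, nor the making of the Krt9 allele, nor the number of animals behind a library. P-values therefore measure the spread between these libraries.

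Red cells carry oxygen on haemoglobin, which joins alpha and beta globin chains, each holding a haem group. Embryonic chains such as Hbb-y serve the first, yolk sac-derived red cells, and adult chains the later cells made in foetal liver, bone marrow and spleen. Young red cells (reticulocytes) still hold globin mRNA when they enter the blood and lose it as they mature. In RNA of a whole paw, fewer red cells and less RNA per red cell cannot be told apart.

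Library totals ran from 28947715 to 41004173 counts, with 25119 to 28061 genes detected. Krt9 itself lay between 5.32 and 6.08 CPM (counts per 1000000, scaled by TMM) in the Krt9-/- paws of P0, inside the WT range of 2.09 to 7.61 CPM. On P3 it lay between 7.74 and 25.2 CPM in Krt9-/- paws and between 32.9 and 83.0 CPM in WT paws. The sources used here do not say which part of Krt9 the allele removes, so these reads do not check the P0 labels. Sex-linked transcripts matched the labelled sex in 13 libraries, and in P0 WT replicate 4 neither kind of marker was clear. The columns of the table form 2 alphabetical runs, of 8 libraries (block A) and 6 libraries (block B), that cut across the groups. Whether they are batches is not stated.

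Upstream sequence is shown for 5 of the genes because the adult globins and Alas2, which lie on 3 chromosomes, varied together across libraries, as described below. Hbb-y is shown as the embryonic gene beside them, and Hba-a2, nearly identical to Hba-a1, is not printed. The promoter sequences used here include none for Slc4a1. Whether upstream sequence bears on the shared variation was not tested. Each line gives the 250 bases before the transcript start, 5′ to 3′ on the gene's strand, from RefSeq on GRCm38.p6, a different build from the GRCm39 of the submitters' processing notes. Capitals mark matches on either strand to GATAA (the letters read by GATA factors), CACCC (read by factors of the Klf1 kind), CCAAT and TATAA, the last 2 being common parts of core promoters. The windows are chr11:32283422-32283671 (+) for Hba-a1, chr7:103827929-103828178 (-) for Hbb-bs, chr7:103813924-103814173 (-) for Hbb-bt, chr7:103853208-103853457 (-) for Hbb-y and chrX:150547167-150547416 (+) for Alas2.
Hba-a1: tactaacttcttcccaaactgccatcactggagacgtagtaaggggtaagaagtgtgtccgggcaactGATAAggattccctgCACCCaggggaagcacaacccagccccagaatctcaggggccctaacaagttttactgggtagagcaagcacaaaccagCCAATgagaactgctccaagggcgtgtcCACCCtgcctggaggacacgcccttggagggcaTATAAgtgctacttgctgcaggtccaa
Hbb-bs: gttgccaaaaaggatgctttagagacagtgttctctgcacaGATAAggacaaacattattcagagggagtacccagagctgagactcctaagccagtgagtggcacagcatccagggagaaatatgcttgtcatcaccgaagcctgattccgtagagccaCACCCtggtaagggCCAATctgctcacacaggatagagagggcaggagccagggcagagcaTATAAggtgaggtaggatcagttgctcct
Hbb-bt: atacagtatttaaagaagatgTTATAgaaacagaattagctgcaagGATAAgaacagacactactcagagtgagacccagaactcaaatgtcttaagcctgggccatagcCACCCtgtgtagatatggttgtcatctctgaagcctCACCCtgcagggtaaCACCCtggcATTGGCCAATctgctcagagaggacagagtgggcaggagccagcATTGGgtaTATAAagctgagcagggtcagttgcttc
Hbb-y: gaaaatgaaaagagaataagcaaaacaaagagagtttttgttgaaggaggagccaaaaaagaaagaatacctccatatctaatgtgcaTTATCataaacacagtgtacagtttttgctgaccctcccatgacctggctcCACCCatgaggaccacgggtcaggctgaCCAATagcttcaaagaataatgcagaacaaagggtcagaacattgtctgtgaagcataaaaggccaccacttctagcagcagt
Alas2: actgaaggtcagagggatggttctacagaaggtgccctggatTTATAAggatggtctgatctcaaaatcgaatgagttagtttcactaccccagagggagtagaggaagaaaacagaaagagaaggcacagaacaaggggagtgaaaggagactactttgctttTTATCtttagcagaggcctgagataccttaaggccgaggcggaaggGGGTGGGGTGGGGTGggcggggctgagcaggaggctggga

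All 4 motifs were found in the windows of Hba-a1, Hba-a2, Hbb-bs and Hbb-bt. The search window held 250 bases before and 50 after the start, and every match lay before the start. GATAA occurs in 25.4% of the 32851 RefSeq promoter windows of that length, CACCC in 57.5%, CCAAT in 37.4%, TATAA in 24.9%, and all 4 together in 1.51%. The TATAA nearest the start began 27 bases before it in Hba-a1, 29 in Hbb-bs and 28 in Hbb-bt. The CCAAT on the gene's own strand began 88, 76 and 75 bases before the start in the same order. Hbb-y held 3 of the 4 motifs, with no TATAA, and Alas2 held 3 of the 4, with no CCAAT. Alas2 had 3 CACCC matches on the opposite strand (read here as GGGTG), and in Hbb-bt 2 CCAAT matches on opposite strands abut. In Alas2 the TATAA matches on the 2 strands overlap by all but 1 base. The Hba-a1 and Hba-a2 windows share a run of 297 bases, the Hbb-bs and Hbb-bt windows were identical at 74.7% of aligned bases, and those of Hbb-bs and Hbb-y at 61.5%.

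Adult globin mRNA dominated the set, and Hbb-y was close to absent. Per kilobase of exon, the median level over the 14 libraries was 679.1 CPM for Hbb-bs, 493.3 for Hba-a1, 92.5 for Hbb-bt, 80.8 for Hba-a2, 11.6 for Alas2, 2.80 for Slc4a1 and 0.0297 for Hbb-y. Hbb-bs stood above Hba-a1, Hba-a1 above Hbb-bt and Hba-a2 above Alas2 in 14 of 14 libraries. Hbb-bt stood above Hba-a2 in 10 of 14, so these neighbours have no fixed order, and Alas2 stood above Slc4a1 in 13 of 14. Ranges over libraries overlapped for every pair of neighbours except Slc4a1 and Hbb-y. The 4 adult globins and Hbb-y together took between 0.0506% and 0.333% of all counts in a library, a 6.58-fold span. The genes of each adult pair share sequence, and how reads that match both were counted is not given. The adult globin levels, their order and this share are therefore uncertain.

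Hbb-bs (ENSMUSG00000052305.7, chromosome 7) is an adult beta globin gene and had more counts than Hbb-bt in each library. Its level in the 4 P0 WT libraries was 1728, 327, 295 and 281 CPM, and in the 2 P0 Krt9-/- libraries 419 and 329 CPM. In the 5 P3 WT libraries it was 1162, 875, 251, 406 and 625 CPM, and in the 3 P3 Krt9-/- libraries 880, 1287 and 701 CPM. P0 WT replicate 1 was the highest of all 14 libraries and P3 WT replicate 3 the lowest, so the WT days overlapped fully, while both P0 Krt9-/- libraries lay under all 3 of P3.

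Hba-a1 (ENSMUSG00000069919.8, chromosome 11) encodes an adult alpha chain. It measured 1500, 296, 234 and 189 CPM in P0 WT, 327 and 282 in P0 Krt9-/-, 977, 717, 203, 298 and 474 in P3 WT, and 677, 1123 and 570 in P3 Krt9-/- paws. The same library, P0 WT replicate 1, was highest, and among the P3 libraries replicate 3 of WT was again lowest. Hba-a2 (ENSMUSG00000069917.8, chromosome 11), the second adult alpha gene, ranged from 20.8 to 173.6 CPM. Hbb-bt (ENSMUSG00000073940.4, chromosome 7), the second adult beta gene, ranged from 20.6 to 167.5 CPM. Both had their highest value in P0 WT replicate 1 and their lowest in P3 WT replicate 3.

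**Figure D1:**
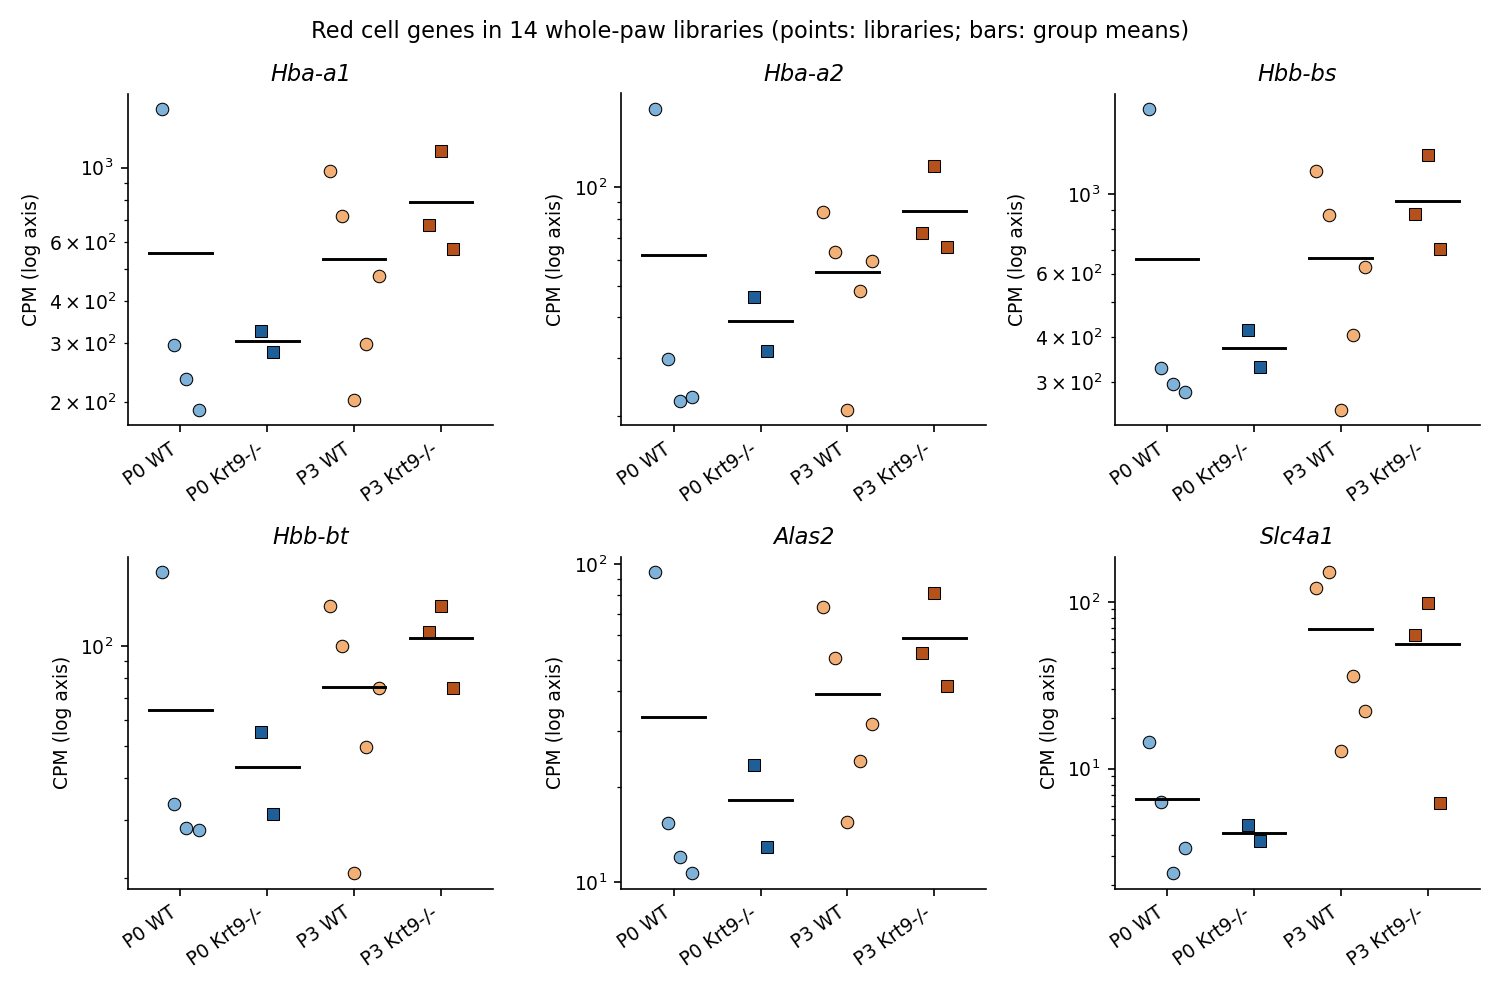
CPM (log axes) of the 6 genes that passed the filter, 1 point per library and a bar at each group's mean, for WT and Krt9-/- paws on P0 and P3. For the 4 adult globins and Alas2 a single P0 WT library sits above all others, and Slc4a1 is the gene whose P0 libraries (2.36 to 14.5 CPM) lie low and whose P3 libraries spread from 6.25 to 150.6 CPM.

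P0 WT replicate 1 set the WT mean of P0. It exceeded the mean of the other 3 P0 WT libraries 6.26-fold for Hba-a1, 6.95-fold for Hba-a2, 5.74-fold for Hbb-bs, 5.62-fold for Hbb-bt, 7.45-fold for Alas2 and 3.62-fold for Slc4a1. The group mean of Hbb-bs on P0 was 657.8 ± 713.9 CPM in WT (SD, n = 4), against 663.5 ± 364.4 CPM on P3 (SD, n = 5). For Hba-a1 the same means were 554.6 ± 631.5 and 533.8 ± 315.7 CPM. P0 Krt9-/- replicate 1, which carries the same day and litter number as P0 WT replicate 1, had 419 CPM of Hbb-bs. P3 WT replicates 2 and 3, both males of litter 2, differed in Hbb-bs by 875 against 251 CPM. Other libraries with a shared litter number lay close or far apart. With litter number 1, P0 WT replicate 1 and P3 WT replicate 1 had 1728 and 1162 CPM. P0 Krt9-/- replicate 2 and P3 WT replicate 4 of litter 7 had 329 and 406 CPM. P0 WT replicate 3 and P3 Krt9-/- replicate 1 of litter 3 had 295 and 880 CPM. P0 WT replicate 2 and P3 WT replicate 2 of litter 2 had 327 and 875 CPM.

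The first comparison asked how paw RNA differs between P0 and P3 in WT mice. A gene is said to be called where edgeR's quasi-likelihood test gave a Benjamini-Hochberg adjusted p under 0.05 over the 21619 genes tested. In WT paws 1 of the 6 genes, Slc4a1, was called between P0 and P3, where 16.6% of all genes tested were called, 8.49% as higher on P3 and 8.07% as lower. The adult globins and Alas2 were not called, and their fitted log2 fold changes (P3 over P0) were 0.0069 ± 0.61 (SE) for Hba-a1, -0.062 ± 0.63 for Hba-a2, 0.078 ± 0.57 for Hbb-bs, 0.31 ± 0.60 for Hbb-bt and 0.33 ± 0.63 for Alas2 (edgeR adjusted p from 0.777 to 0.996). At an unadjusted p under 0.05 the count was again 1 of 6, against 30.7% of all genes. The median log2 fold change was 0.19 over the 6 genes and -0.0096 over all genes tested. DESeq2 also called 1 of 6, where it called 21.7% of all genes, and limma voom 0 of 6, where it called 16% of all genes.

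Without P0 WT replicate 1 the day differences of the globins in WT were larger and still not called. The log2 fold changes were then 1.08 for Hba-a1, 1.17 for Hba-a2, 1.07 for Hbb-bs, 1.25 for Hbb-bt and 1.5 for Alas2, with edgeR adjusted p from 0.0778 to 0.182. All 6 genes then had an unadjusted p under 0.05, where 25.6% of the 21201 genes tested did and 8.32% were called. The adult globins and Alas2 varied together, as described below, so the 6 genes are not separate observations. With P0 WT replicate 1 kept, the WT groups of P0 and P3 overlapped for each of the 6 genes. Of all genes tested, 16.7% then had WT groups that did not overlap. Without it the groups of Slc4a1 (at most 6.28 and at least 12.8 CPM) and Alas2 (at most 15.4 and at least 15.5 CPM) parted. Those of the adult globins still overlapped. The share of all genes without overlap was not counted for that setting.

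Alpha globin and the haem enzyme varied together with beta globin from library to library. Within P0 (6 libraries) Hba-a1 followed Hbb-bs with r = 0.991 (exact permutation p = 0.00556, adjusted 0.00833 over 6 relations; rho 0.943, p = 0.0167), and with r = 0.976 without the 2 libraries farthest from the median. Within P3 (8 libraries) its r was 0.997 (exact permutation p = 9.92e-05, adjusted 0.000298; rho 0.976, p = 0.000397), and 0.995 without the 2 farthest. Alas2 followed Hbb-bs with r = 0.989 on P0 (exact permutation p = 0.00556, adjusted 0.00833; rho 0.943, p = 0.0167) and 0.992 on P3 (exact permutation p = 4.96e-05, adjusted 0.000298; rho 1, p = 4.96e-05, the smallest that 8 libraries allow). Without the 2 farthest libraries these were 0.869 and 0.993. For Slc4a1 the relation did not pass: r was 0.901 on P0 (exact permutation p = 0.0667, adjusted 0.08; rho 0.771, p = 0.103) and 0.647 on P3 (exact permutation p = 0.0990, adjusted 0.0990; rho 0.667, p = 0.0831). It was 0.626 and 0.732 without the 2 farthest. Over all 14 libraries, as a description across libraries that share their scaling, r ran from 0.961 to 0.994 among the adult globins and Alas2 and from 0.621 to 0.755 between them and Slc4a1.

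**Figure D2:**
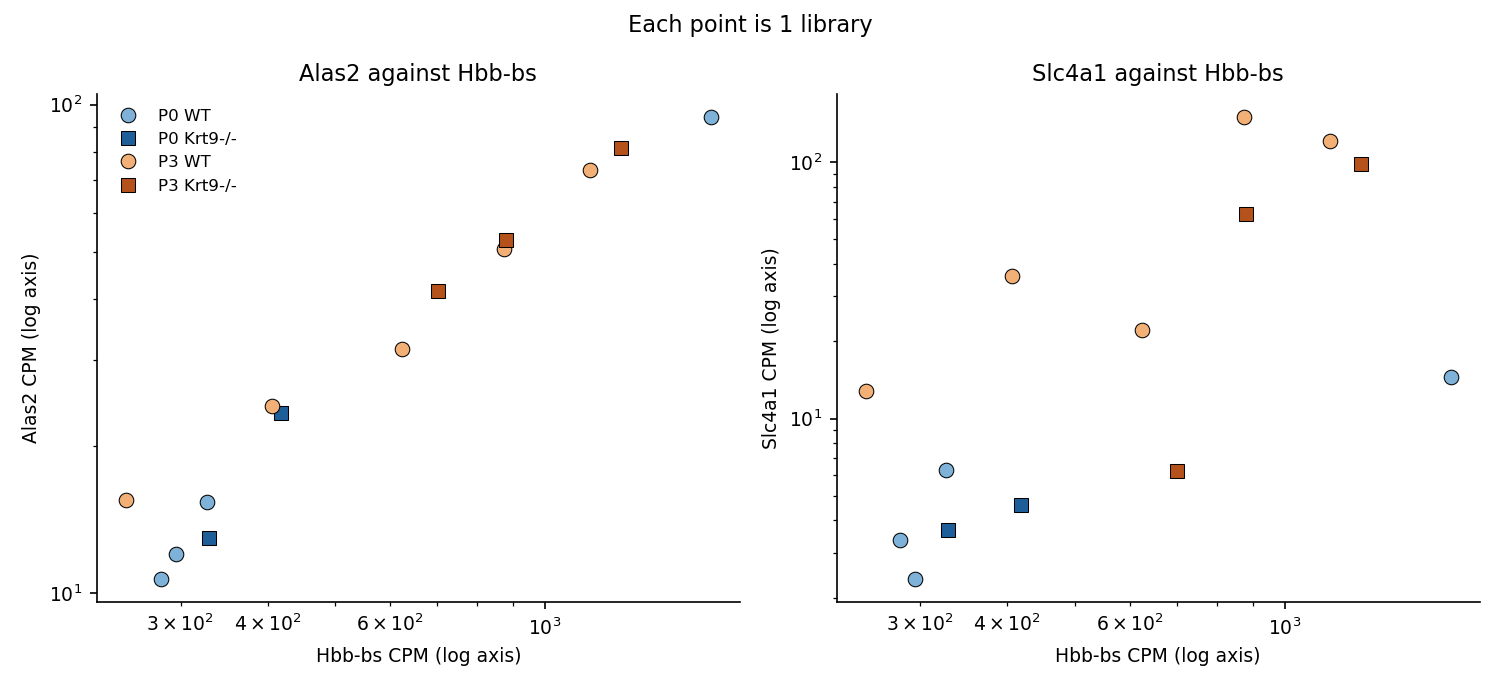
Alas2 (left) and Slc4a1 (right) against Hbb-bs, all in CPM on log axes, 1 point per library in the colour and shape of its group. Alas2 rises with Hbb-bs in each group, from 10.7 to 94.5 CPM over all libraries. Set against the adult globins, Alas2 is higher by log2 0.39 in P3 than in P0 WT paws, which did not pass after adjustment. By contrast, P0 WT replicate 1, with the most Hbb-bs (1728 CPM), has 14.5 CPM of Slc4a1. P3 WT replicate 2, with 875 CPM of Hbb-bs, has 150.6 CPM of Slc4a1.

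Ratios of counts inside a library do not depend on scaling between libraries. The count ratio of alpha to adult beta globin lay between 0.687 and 0.904, that of Hbb-bs to Hbb-bt between 7.59 and 12.2, and that of Hba-a1 to Hba-a2 between 6.17 and 11.6. No difference in these 3 ratios passed for day in WT or genotype on P3, with exact two-sided permutation p from 0.286 to 1. For day in Krt9-/- and genotype on P0 the smallest p that the libraries allow is 0.2 and 0.133, so those tests could not pass. Hba-a1 and Hba-a2 transcripts are identical at 537 of 538 aligned bases, and those of Hbb-bs and Hbb-bt at 581 of 626 (92.8%). Only 32.5% of 50-base windows of Hba-a1, 13.1% of Hba-a2, 34.2% of Hbb-bs and 41.7% of Hbb-bt occur in that gene alone, so the split of reads within each pair is uncertain. If reads that match both genes of a pair were left out of the counts, the alpha to beta ratio would be affected too. With each pair summed, the WT day difference was 0.0026 for alpha and 0.10 for beta globin on the log2 scale, neither called by edgeR.

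**Figure D3:**
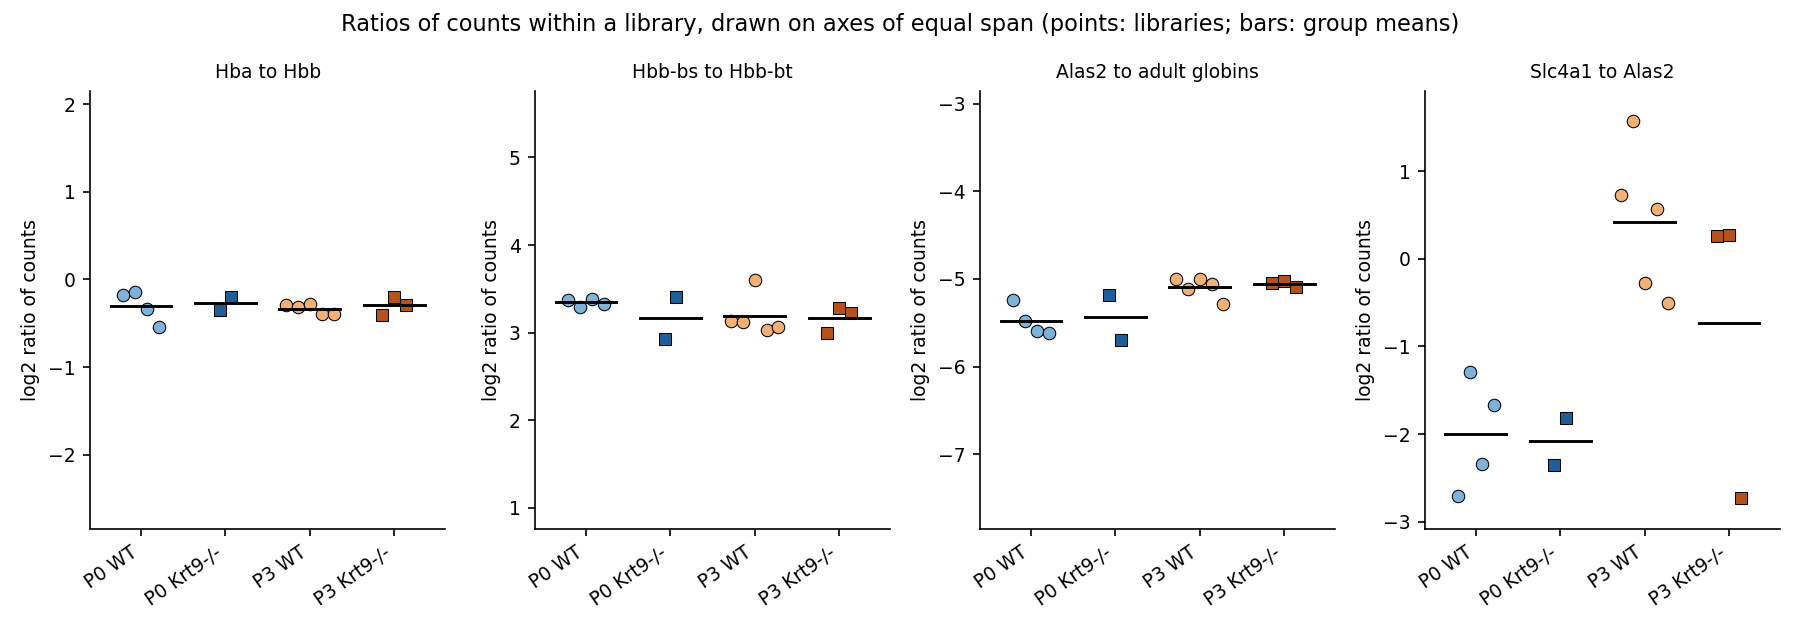
Log2 ratios of counts within a library for 4 ratios by group, on axes of equal span, with 1 point per library and a bar at each group mean. Alpha to beta globin and Hbb-bs to Hbb-bt stay within narrow bands, Alas2 to adult globins is higher by 0.39 in P3 than in P0 WT paws, and Slc4a1 to Alas2 spans -2.73 to 1.57.

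Embryonic globin RNA was at or near the counting limit in paws of both days. Hbb-y (ENSMUSG00000052187.5, chromosome 7) had 11, 1, 0 and 2 counts in the P0 WT libraries, 3 and 0 in P0 Krt9-/-, 0, 0, 2, 0 and 6 in P3 WT and 0, 0 and 3 in P3 Krt9-/- libraries. That is 28 counts in all, above 0 in 7 of 14 libraries, or 7.55 for every 100000 counts of adult beta globin. A library with a count of 0 allows up to 3 counts, or 0.0732 to 0.104 CPM, counting error only. Hbb-y did not pass the filter, so no difference between days or genotypes was tested for it in the main fit. Of the other embryonic genes, the alpha-like Hba-x had 5 counts and the beta-like Hbb-bh1 had 5, all of the latter in 1 library, while Hbb-bh2 and Hbb-bh0 had none. The theta globins Hbq1a and Hbq1b had 16 and 151 counts. Of the 9 other globins listed, 4 passed the filter and none was called for day in WT by edgeR, with 2 at an unadjusted p under 0.05, 1 called by DESeq2 and none by voom. Of all genes tested, edgeR called 16.6%, DESeq2 21.7% and voom 16%, and 30.7% had an unadjusted p under 0.05 in edgeR. With 4 genes, these counts cannot be told from those shares. Myoglobin Mb, the oxygen store of muscle, had a log2 fold change of 1.09 ± 0.39 (SE, edgeR adjusted p = 0.0703), and cytoglobin Cygb 0.26 ± 0.10 (edgeR adjusted p = 0.0986).

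Alas2 (ENSMUSG00000025270.14, chromosome X) makes the first intermediate of haem in red cell precursors. It measured 94.5, 15.4, 12 and 10.7 CPM in P0 WT, 23.4 and 13 in P0 Krt9-/-, 73.5, 50.7, 15.5, 24.1 and 31.6 in P3 WT, and 52.8, 81.4 and 41.5 in P3 Krt9-/- paws. It was highest in P0 WT replicate 1, like the globins, and lowest in P0 WT replicate 4, whereas Hbb-bs was lowest in P3 WT replicate 3. Set against the summed adult globins, 1 Alas2 count came with 31.9 to 52.0 globin counts. The log2 ratio was -5.09 ± 0.12 in P3 WT (SD, n = 5) and -5.48 ± 0.17 in P0 WT (SD, n = 4), a difference of 0.39 with an exact permutation p of 0.0317, which is 0.317 after adjustment over 20 ratio tests. In Krt9-/- paws the difference was also 0.39, with an exact permutation p of 0.2, the smallest that 3 against 2 libraries can give.

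Several other genes of the haem pathway, which every cell uses, rose on P3 in WT paws. Of 18 genes of haem synthesis and mitochondrial iron, edgeR called 9 as higher and 1 as lower on P3 in WT paws, with a median log2 fold change of 0.49. Of all genes tested, 8.49% were called as higher and 8.07% as lower. Tmem14c, a mitochondrial carrier of a haem precursor, rose from 44.9 ± 2.79 to 66.5 ± 6.64 CPM (log2 fold change 0.57 ± 0.10 SE, edgeR adjusted p = 0.00255). Uros, an enzyme that builds the porphyrin ring, rose by log2 0.94 ± 0.19 (edgeR adjusted p = 0.00488). Flvcr1, a haem exporter, fell by 0.54 on the log2 scale (edgeR adjusted p = 0.00781). Fech, which inserts the iron, and Alas1, the housekeeping counterpart of Alas2, were not called (0.079 and 0.0067). Without P0 WT replicate 1, edgeR called 4 as higher and 1 as lower, where it called 8.32% of all genes.

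Slc4a1 (ENSMUSG00000006574.16, chromosome 11), the band 3 chloride and bicarbonate exchanger of the red cell membrane, varied most of the 6 genes that passed the filter. In P0 WT libraries it measured 14.5, 6.28, 2.36 and 3.36 CPM, and in P0 Krt9-/- libraries 4.59 and 3.68 CPM. In P3 WT libraries it measured 121.5, 150.6, 12.8, 35.8 and 22.2 CPM, and in P3 Krt9-/- libraries 63.1, 98.6 and 6.25 CPM. All P0 libraries were low, 7 of the 8 P3 libraries were higher than all but 1 of P0, and P3 Krt9-/- replicate 3 stood at the P0 level although its Hbb-bs was 701 CPM. The highest library exceeded the lowest 63.9-fold, against 6.90- to 8.86-fold for the adult globins and Alas2.

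In WT paws Slc4a1 rose from a mean of 6.63 ± 5.51 CPM on P0 (SD, n = 4) to 68.6 ± 63.0 CPM on P3 (SD, n = 5), 8.95-fold by the fit (log2 3.16 ± 0.96 SE, edgeR adjusted p = 0.0488). The WT groups overlapped, since P3 WT replicate 3 had 12.8 CPM and P0 WT replicate 1 had 14.5. The call stood close to the threshold: it was made in 10 of 30 alternative settings, with a log2 fold change from 2.54 to 3.74, above 0 in all 30, and adjusted p from 0.00191 to 0.544 except in edgeR without a filter on low counts (8.7e-74, with an SE of 0.172). Leaving out 1 library ended the call for 11 of 14 libraries (adjusted p from 0.0666 to 0.13), all but P3 WT replicate 3 and Krt9-/- replicates 2 and 3 of P3. Within block A alone the log2 fold change was 3.05 (edgeR adjusted p = 0.228) and within block B alone 2.54 (adjusted p = 0.148). DESeq2 gave an adjusted p of 0.00191 and limma voom 0.0657. Slc4a1 lies 2.16 Mb from Krt9 on chromosome 11.

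Within a library, the ratio of Slc4a1 to Alas2 was higher in each P3 WT than in each P0 WT paw. This ratio was added after the values were seen. Its log2 value was 0.42 ± 0.83 in P3 WT (SD, n = 5) and -2.0 ± 0.64 in P0 WT (SD, n = 4), and the 2 groups did not overlap. The difference of 2.42 had an exact permutation p of 0.0159, the smallest that 5 against 4 libraries allow, and 0.317 after adjustment over 20 ratio tests, of which none passed 0.05. In Krt9-/- paws the difference was 1.35 with all 3 P3 libraries (exact permutation p = 0.6) and 2.35 without replicate 3, whose ratio of counts, 0.151, was the lowest of the 14 libraries.

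Genes of the red cell membrane and its skeleton fell into a part that rose on P3 in WT paws and a part that was not called. Of 20 listed genes 19 passed the filter, and edgeR called 8 as higher and none as lower on P3 in WT paws, with a median log2 fold change of 1.70. Of all genes tested, 8.49% were called as higher and 8.07% as lower. At an unadjusted p under 0.05, 13 were found, of which 12 were higher, against 30.7% of all genes. Cldn13, a claudin, rose by log2 3.42 ± 0.86 (edgeR adjusted p = 0.0199), and Mpp1, a palmitoylated membrane scaffold, by 0.39 ± 0.11 (edgeR adjusted p = 0.0259). Also called were Epb42 (3.82), Rhd (3.12), Add2 (1.70) and Tspo2 (2.14), given as log2 fold changes with edgeR adjusted p from 0.0291 to 0.0449. The spectrin, ankyrin and band 4.1 genes Sptb, Ank1 and Epb41, used in many tissues, were not called (0.25, -0.16 and 0.055). DESeq2 called 11 as higher and voom 2, and without P0 WT replicate 1 edgeR called none of the 19, with a median of 1.70.

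Of the genes of the late red cell cytoplasm, a few rose and most were not called. Of 21 tested, edgeR called 4 as higher on P3 in WT paws and none as lower, a share near the 16.6% of all genes called, and 13 had an unadjusted p under 0.05, against 30.7% of all genes. The carbonic anhydrases Car1 and Car2, which serve carbon dioxide transport, rose by log2 4.07 ± 1.01 and 2.36 ± 0.70 (edgeR adjusted p = 0.0206 and 0.044). Hemgn, a nuclear protein of red cell precursors, rose by 3.20 ± 0.81 (edgeR adjusted p = 0.0234), and Nxpe2 by 2.01 ± 0.59 (edgeR adjusted p = 0.0364). Bpgm, which makes the regulator of haemoglobin's oxygen affinity, was not called (0.41, edgeR adjusted p = 0.368). DESeq2 called 8 as higher and voom 3, and without P0 WT replicate 1 edgeR called 2.

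**Figure D4:**
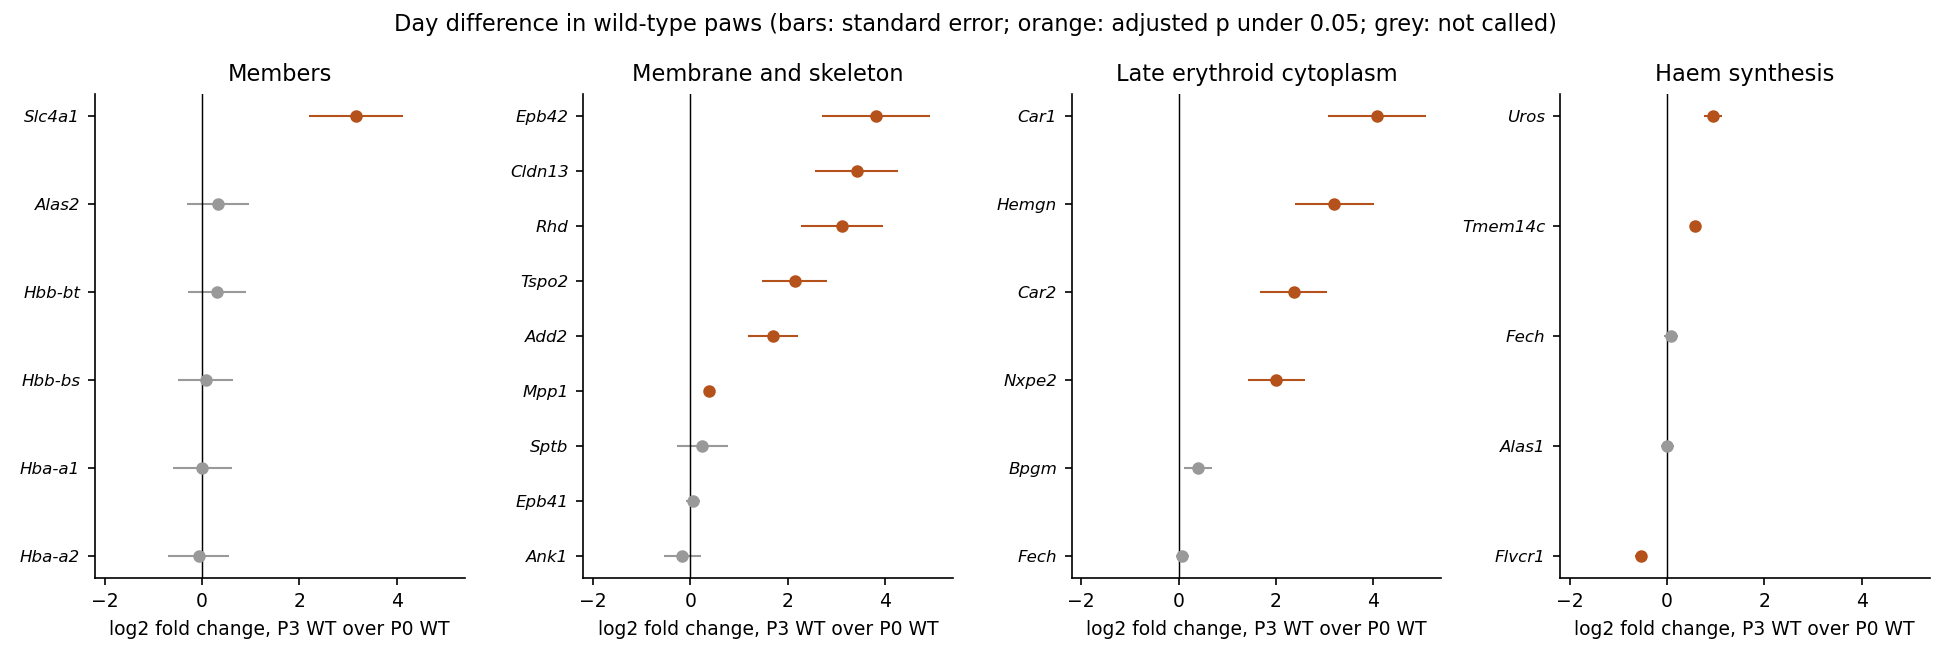
Fitted log2 fold changes, P3 WT over P0 WT, with standard errors for the members and the genes of 3 lists that the text names, orange where edgeR's adjusted p was under 0.05 and grey otherwise. Slc4a1 (3.16) sits with Cldn13 (3.42), Rhd (3.12) and Epb42 (3.82), while the globins and Alas2 sit between -0.062 and 0.33.

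Among the genes whose levels most resembled the red cell genes were Bpgm for the set and Ctse and Hemgn for Slc4a1. Against the mean standardised profile of the 6 genes, over 15536 genes and 14 libraries, the 10 highest Pearson r included those of Bpgm (0.958), Isg20 (0.882), Epb41 (0.879), Tent5c (0.834), Gm3285 (0.824), Ncmap (0.822), Trim10 (0.821) and Fbxo7 (0.820). With group means taken out the 10 highest included Bpgm (0.959), Klhdc8a (0.894), Gm48194 (0.886), Isg20 (0.875), Epb41 (0.855), Trim10 (0.837), Tigar (0.835) and Susd5 (0.834). Against Slc4a1 alone, a profile added after values were seen, the highest included Ctse (0.973), Hemgn (0.970) and Epb42 (0.968). These are descriptions of libraries that share their scaling, with no test.

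**Figure D5:**
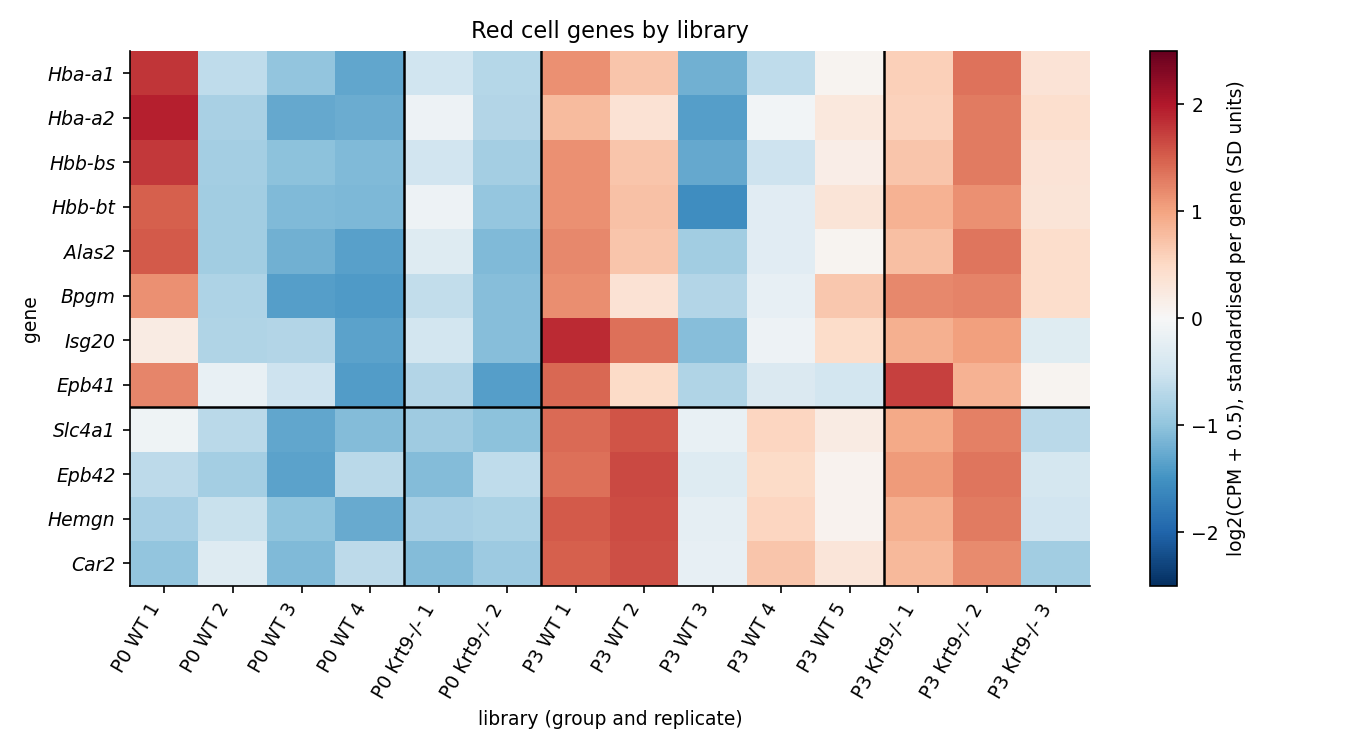
Standardised log2(CPM + 0.5) per gene (colour, SD units) in the 14 libraries. Above the line are the adult globins, Alas2 and 3 of the 5 genes closest to the mean profile, with P0 WT replicate 1 red (pale for Isg20) and P3 WT replicate 3 blue. Below it are Slc4a1 and 3 of the genes closest to it, which are blue or pale in all P0 libraries, P0 WT replicate 1 included, and in P3 Krt9-/- replicate 3.

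Several transcription factors of red cell precursors rose on P3 in WT paws and others fell. Of 12 erythroid transcription factors, edgeR called 3 as higher and 3 as lower on P3 in WT paws, and 2 and 2 without P0 WT replicate 1. Of all genes tested, 8.49% were called as higher and 8.07% as lower with that library kept. E2f2, a cell cycle factor of red cell precursors, rose from 13.1 ± 1.5 to 41.5 ± 9.69 CPM (log2 fold change 1.62 ± 0.21 SE, edgeR adjusted p = 0.000565). Nfe2, which binds globin control regions, rose by 2.11 ± 0.34 and Klf1, an activator of adult beta globin, by 2.99 ± 0.86 (edgeR adjusted p = 0.00164 and 0.0367). Bach1, a haem-sensing repressor, Foxo3 and Tfdp2 fell by 0.87, 0.62 and 0.54 on the log2 scale. Gata1 and Tal1, regulators of the whole red cell programme, had log2 fold changes of 1.44 and 0.79 and were not called (edgeR adjusted p = 0.105 and 0.0934).

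Of 10 regulators of globin switching, edgeR called 1 as higher and 3 as lower on P3 in WT paws, against 8.49% and 8.07% of all genes. Myb rose by log2 1.14 ± 0.23 (edgeR adjusted p = 0.00527), and the RNA-binding proteins Igf2bp1, Igf2bp2 and Igf2bp3 fell by 1.26, 0.92 and 0.64. Bcl11a, a repressor of embryonic globins, was not called (0.30, edgeR adjusted p = 0.1). Of 9 genes of erythropoietin and transferrin uptake, 4 were called as higher and 1 as lower, again against 8.49% and 8.07% of all genes. Without P0 WT replicate 1 the counts were the same, where edgeR called 8.32% of all genes. The transferrin receptor Tfrc rose from 43.0 ± 9.04 to 126.8 ± 47.4 CPM, the iron reductase Steap3 from 17.0 ± 1.12 to 42.5 ± 7.74 CPM and the erythropoietin receptor Epor from 1.79 ± 0.443 to 5.96 ± 2.52 CPM. Their edgeR adjusted p were 0.0039, 0.00104 and 0.00758, and the WT groups of all 3 did not overlap. Jak2, the kinase on that receptor and others, fell by 0.54 (edgeR adjusted p = 0.00525). These genes are also used by cells other than red cells.

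Among genes of haemoglobin and iron clearance, the haem oxygenase Hmox1 was lower on P3 in both genotypes and the biliverdin reductases that act after it rose in WT paws. Of 12 tested, edgeR called 5 as higher and 1 as lower on P3 in WT paws, and 2 and 1 without P0 WT replicate 1. Of all genes tested, 8.49% were called as higher and 8.07% as lower with that library kept. Hmox1, which opens the haem ring, fell from 253 ± 28.4 to 68.3 ± 6.77 CPM, by 1.91 on the log2 scale (edgeR adjusted p = 1.45e-05), and the WT groups did not overlap. It also fell in Krt9-/- paws, from 229 ± 10.5 to 84.2 ± 23.4 CPM (by 1.43, edgeR adjusted p = 0.00979). The biliverdin reductases Blvrb and Blvra rose by log2 0.74 ± 0.13 and 0.59 ± 0.12, and the haemoglobin scavenger receptor Cd163 by 0.60 ± 0.16 (edgeR adjusted p = 0.00224, 0.00652 and 0.0233).

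Markers of other blood and vessel cells were measured beside these lists. Of all genes tested, edgeR called 8.49% as higher and 8.07% as lower on P3 in WT paws. Of 12 neutrophil markers 4 were called as higher, S100a8 and S100a9 by log2 1.54 ± 0.40 and 1.45 ± 0.40 (edgeR adjusted p = 0.0238 and 0.0329), and their summed level ran from 63.7 to 190.0 CPM in P0 WT and from 185 to 419 in P3 WT. Of 11 lymphocyte markers 4 were called as higher and 1 as lower, summing to 10.9 to 17.8 CPM on P0 and 17.4 to 33.9 on P3 in WT paws, and the B cell genes Ms4a1 and Cd79a rose by log2 3.65 and 1.63. Without P0 WT replicate 1 edgeR called 0 neutrophil markers, 2 lymphocyte markers, both as higher, 0 endothelial and 6 proliferation markers. Of all genes it then called 8.32%. Of 12 platelet markers none was called by edgeR, DESeq2 or voom, with 1 at an unadjusted p under 0.05, and their sums overlapped (212 to 285 against 217 to 312 CPM). Of 12 endothelial markers 1, Pecam1, was called as lower, with sums of 837 to 982 CPM on P0 and 636 to 863 on P3. Of 11 proliferation markers 7 were called as higher, Mki67 by log2 0.81, with sums of 722 to 831 CPM on P0 and 1090 to 1364 on P3. In none of these 5 lists was a marker at 0 in every library of a WT group. Called neutrophil and proliferation markers were thus higher on the same WT day as Slc4a1, as were 4 called lymphocyte markers, with 1 (Trbc2) lower. No neutrophil call remained without P0 WT replicate 1. The part of these markers in the Slc4a1 difference was not tested.

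In Krt9-/- paws all 6 genes were higher on P3 than on P0, and none was called by edgeR. Their groups did not overlap in any of the 6, where 25.6% of genes tested had no overlap between 3 and 2 libraries. The adult globins and Alas2 varied together (r from 0.961 to 0.994 over all 14 libraries), so the 6 genes are not separate observations. Mean Hbb-bs was 956 ± 300 CPM on P3 (SD, n = 3) and 374 ± 63.3 CPM on P0 (SD, n = 2). The log2 fold changes were 1.56 ± 0.88 (SE) for Hba-a1, 1.30 ± 0.89 for Hba-a2, 1.53 ± 0.82 for Hbb-bs, 1.52 ± 0.86 for Hbb-bt, 2.00 ± 0.93 for Alas2 and 3.93 ± 1.39 for Slc4a1 (edgeR adjusted p from 0.209 to 0.532). Slc4a1 alone had an unadjusted p under 0.05. Of all genes, 0.768% were called and 15.9% had an unadjusted p under 0.05, and the median log2 fold change was 1.55 over the 6 genes and -0.0082 over all genes. DESeq2 called 1 of the 6, Slc4a1 (adjusted p = 0.0187), where it called 5.06% of all genes, and limma voom 0, where it called 0.722%. Without a filter on low counts edgeR called all 6, with nearly the same fold changes and a smaller SE (0.207 for Hbb-bt), and it then called 4.6% of all genes. Without P0 WT replicate 1, which lies outside this comparison but shares its spread estimate, all 6 had an unadjusted p under 0.05 and none was called, against 15.4% and 0.382% of all genes.

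Among the lists, the Krt9-/- day difference was called for 2 erythroid factors, E2f2 (log2 1.42 ± 0.28 SE, edgeR adjusted p = 0.0367) and Nfe2 (2.15 ± 0.46, edgeR adjusted p = 0.0471), both lost without P0 WT replicate 1. The endothelial markers Pecam1, Esam and Emcn were lower, by 1.03, 1.00 and 0.83 on the log2 scale, and their list summed to 864 to 987 CPM on P0 and 462 to 785 on P3. Fewer endothelial calls, 1 and 0, were made without P0 WT replicate 1 and without P3 Krt9-/- replicate 3. Besides Hmox1, no other list gene was called, against 64 of 163 list entries at an unadjusted p under 0.05, 25 called by DESeq2 and 5 by voom. Of all genes tested, edgeR called 0.768%, DESeq2 5.06% and voom 0.722%, and 15.9% had an unadjusted p under 0.05 in edgeR. Without P0 WT replicate 1 edgeR called 0.382% of all genes, and without P3 Krt9-/- replicate 3 it called 67 of 21744.

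The design compares Krt9-/- with WT paws, and none of the 6 genes was called between the genotypes on either day. On P0 the log2 fold changes (Krt9-/- over WT) ran from -0.70 for Alas2 to -0.47 for Hbb-bt (edgeR adjusted p from 0.921 to 0.957), with groups overlapping in all, where 11.3% of genes tested did not overlap. Their sign rested on P0 WT replicate 1: without it Hba-a1, Hba-a2, Hbb-bs, Hbb-bt and Alas2 were at 0.31, 0.66, 0.27, 0.45 and 0.41, and Slc4a1 at -0.13. On P3 they ran from 0.16 for Slc4a1 to 0.97 for Alas2 (edgeR adjusted p from 0.900 to 0.992), again with overlap in all, where 2.56% of genes tested had none. The means of Alas2 on P3 were 58.6 ± 20.6 CPM in Krt9-/- (SD, n = 3) and 39.1 ± 23.2 CPM in WT (SD, n = 5). Slc4a1 was at -1.13 without P3 Krt9-/- replicate 2 and at 0.62 without replicate 3.

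The genotype differences of P0 and P3 did not differ from each other beyond error either. The interaction estimates ran from 0.77 for Slc4a1 to 1.67 for Alas2 on the log2 scale (edgeR adjusted p from 0.765 to 0.955), and from -0.040 to 0.36 without P0 WT replicate 1. For P0, P3 and the interaction, 0 of 6 genes were called by edgeR, DESeq2 and limma voom, and 0 had an unadjusted p under 0.05 in edgeR. Without a filter on low counts edgeR called 5 on P3 and 5 for the interaction, where it called 1.71% and 1.68% of all genes. With the filter edgeR called, of all genes, 0.00463% on P0, 0.00463% on P3 and 0% for the interaction, and 5.96%, 6.67% and 7.6% had an unadjusted p under 0.05. DESeq2 called 0.0416%, 0.12% and 0.393% of all genes, and limma voom 0.00463%, 0.00463% and 0%. Of the 163 list entries edgeR, DESeq2 and voom called none in these 3 comparisons, and 11, 7 and 10 had an unadjusted p under 0.05 in edgeR. The 3 comparisons share their libraries. Fech and Epb41, both abundant and listed for red cells, were at 0.11 and 0.32 for genotype on P3 (edgeR adjusted p = 0.967 and 0.756).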

How the data were processed

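RNA of 14 whole-paw libraries was measured. The deposited table holds raw read counts per gene, which the authors made with STAR 2.7.10a and featureCounts on GRCm39, per the submitters' processing notes, which also name edgeR and limma. The sources used here give neither the strand setting nor the handling of reads that match several genes. Symbols came from a GRCm38 annotation and matched 52073 of 56691 IDs, and the other 4618 held 0.623% of counts and stayed in the fit. No column was without a sample.

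The 21619 genes that passed filterByExpr were tested by robust quasi-likelihood in edgeR 4.0.16 (R 4.3.3) after TMM scaling, with all 14 libraries in 1 fit of 4 groups and labelled sex, leaving 9 residual degrees of freedom. P-values were adjusted by Benjamini-Hochberg over all genes tested, in 5 comparisons. CPM are TMM-scaled, and SE is the log2 fold change over the root of its F statistic. Count ratios were compared by exact two-sided permutation over libraries, adjusted over 20 tests of 5 ratios, and correlations used log2(CPM + 0.5). Depth sets the precision, and intervals for a count of 0 cover counting error only. The fit was also run on counts simulated for day in WT, without outlier libraries, litters or column blocks, so that run does not bear on those. limma 3.58.1, DESeq2 1.42.0, Python 3.11.15, NumPy 2.4.6, pandas 2.3.3, SciPy 1.17.1, matplotlib 3.10.9 and Biopython 1.88 served the alternatives and the rest.

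The 7 genes and the 13 gene lists were chosen with earlier results of these data known. Text names the 7 genes, up to 3 called genes a list and direction with the smallest adjusted p (where none was called, up to 2 of the most abundant), and the 10 genes closest to the members' mean profile. Some genes that this rule picks are not reported here. The other called membrane genes, Car2, the uncalled list genes given beside them, the ratio of Slc4a1 to Alas2, the Slc4a1 profile and the summed globin pairs were chosen after values were seen.

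Alternatives were other scaling, filters, tools and covariates, litter as a block, each column block alone, only the groups compared, the 2 males of P3 WT litter 2 summed, and each library left out. Residual correlations of the 7 pairs of libraries that share a litter number across groups ran from -0.0989 to 0.260, with 3 over 0.1. The highest was that of the 1 such pair from the same day. Whether a number means the same litter on both days is not stated, so the numbers were not taken to pair the samples.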

Additional observations from a re-analysis of the deposited data

Results flagged for a closer look

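Of 22 groups of 4 or 5 libraries looked at, 6 held a library whose gap to its nearest neighbour was large for the group's range, where chance gives about 1 in 20. Of these, 5 are the same library, P0 WT replicate 1, with 1499.6 CPM of Hba-a1, 173.6 of Hba-a2, 1728.2 of Hbb-bs, 167.5 of Hbb-bt and 94.5 of Alas2, and the 5 genes vary together, so they amount to 1 observation. In the same library Slc4a1 had 14.5 CPM, the highest of its group but not far enough from the rest. The last is the log2 ratio of Hbb-bs to Hbb-bt in P3 WT replicate 3, at 3.604, in the library with the lowest Hbb-bs and Hbb-bt levels.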

How the results depend on the processing

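Over all results and alternatives, 1013 values kept their direction and their side of the threshold (or, with no test, stayed within the replicate spread), 70 changed sign, 20 lost and 20 gained a call, and 26 moved otherwise. The cause of these changes was not tested. For day in WT, 0 of 6 genes were called with library size only, limma voom, the column block as a term, litter as a fixed, random or within-day random replicate block, only the groups compared, or block A alone, against 1 in the main result. With block B alone, a fit with 1 residual degree of freedom, the numbers called were 2 for WT by day, 2 for Krt9-/- by day and 1 for genotype on P0, where 17.1%, 22.6% and 1.44% of all genes were called. Without a filter on low counts (36822 genes tested) 6 were called for day in Krt9-/-, 5 for genotype on P3 and 5 for the interaction, against 4.6%, 1.71% and 1.68% of all genes, with an SE of 0.142 against 0.57 for Hbb-bs between the WT days, and DESeq2 called 1 for day in Krt9-/-. Leaving out 1 library gave 0 to 1 for day in WT.

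For day in WT the small log2 fold changes crossed 0. Hba-a1 was at -0.0063 with a filter of 1 CPM in 4 libraries and -0.055 with no sex term. Hba-a2 was at 0.048 with library size only, 0.24 with voom, 0.0051 with the column block as a term, 0.0038 with only the groups compared, 1.49 in block B alone and 0.11 with the 2 males of litter 2 summed. In block A alone Hba-a1, Hbb-bs, Hbb-bt and Alas2 were at -0.58, -0.43, -0.26 and -0.24. Slc4a1 for genotype on P3 was at -0.10 with voom and -0.29 with no sex term.

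With litter as a fixed replicate block, which left 2 residual degrees of freedom, the WT day differences of Hba-a1, Hbb-bs, Hbb-bt and Alas2 were -0.95, -0.84, -0.48 and -0.53. With litter as a random replicate block Hba-a2 was at 0.25 and Slc4a1 for genotype on P3 at -0.13, and with litter within a day at 0.29 and -0.18. The consensus correlations were -0.054 and 0.555. Apart from Slc4a1 for day in WT, none of these blocks changed a call of the 6 genes.

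In block B alone, genotype on P0 was 0.59 for Hba-a1, 0.48 for Hba-a2, 0.24 for Hbb-bs, 0.17 for Hbb-bt, 0.29 for Alas2, 0.14 for Slc4a1 and -0.091 for the log2 ratio of Alas2 to adult globins. Genotype on P3 was -0.12, -0.028, -0.11, -0.13, -0.048 and -1.30 for the same genes, and the interaction -0.71, -0.51, -0.35, -0.30, -0.34 and -1.44.

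With 1 library left out, day in WT ran from -0.25 to 1.08 for Hba-a1, -0.35 to 1.17 for Hba-a2 and -0.17 to 1.07 for Hbb-bs. Genotype on P0 ran from -1.01 to 0.31 for Hba-a1, -0.85 to 0.66 for Hba-a2, -0.89 to 0.27 for Hbb-bs, -0.73 to 0.45 for Hbb-bt and -0.97 to 0.41 for Alas2. Slc4a1 ran from -1.13 to 0.62 for genotype on P3 and -0.56 to 1.24 for the interaction, and Hba-a2 from -0.040 to 1.65 for the interaction. The ratio of Alas2 to globins ran from -0.22 to 0.30 for genotype on P0 and -0.012 to 0.061 on P3, and that of Slc4a1 to Alas2 from -0.35 to 0.19 on P0. Depth limits Hbb-y and the other embryonic globins, whose counts lie near the limit of a count of 0.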
